A study of Mus musculus with 12 samples.

Results

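The genes of histamine and lipid mediator synthesis were examined in sorted mouse basophil-lineage cells by bulk RNA sequencing. The set holds 10 genes named for their products' roles, Hdc, Slc18a2, Alox5, Alox5ap, Ltc4s, Lta4h, Ptgs1, Ptgs2, Hpgds and Pla2g4a, of 32227 genes in the count table. They were taken by symbol, and 9 passed the filter on low counts, Ltc4s being the exception. A difference is named as called where its p from edgeR's quasi-likelihood test, adjusted over all tested genes, was under 0.05. The 12 libraries came from C57BL/6J wild-type mice without treatment and formed 4 groups of 3. The bone marrow (BM) gave CD34+ basophil progenitors (BaPs), CD34- pre-basophils, which were CLEC12A-high and CD9-low and are titled immature basophils in the labels, and CLEC12A-low CD9-high mature basophils. The spleen gave mature basophils with the latter surface markers. The mature groups are called marrow mature and splenic mature basophils here and BM mature and spleen mature in the plots. Per the study's methods, cells of 4 animals were pooled for each library, so the spread between replicates is a spread between pools. The age of the mice was not stated in the sources.

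Histamine is made from histidine by the enzyme that Hdc encodes and is packed into granules by the vesicular monoamine transporter SLC18A2. Leukotrienes and prostaglandins are made from arachidonic acid, which cytosolic phospholipase A2, the product of Pla2g4a, frees from membrane lipids. 5-lipoxygenase (Alox5), with its activating protein FLAP (Alox5ap), turns that acid into leukotriene A4, from which LTA4 hydrolase (Lta4h) makes leukotriene B4 and LTC4 synthase (Ltc4s) makes leukotriene C4. The cyclooxygenases COX-1 (Ptgs1) and COX-2 (Ptgs2) start prostaglandin synthesis, and the haematopoietic prostaglandin D synthase (Hpgds) makes prostaglandin D2. Basophils and mast cells are sources of histamine in allergic reactions.

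All 10 genes are protein coding and lie on 7 chromosomes of GRCm38 (GENCODE M21). Hdc is at chr2:126593667-126619299 on the minus strand and Ptgs2 at chr1:150100031-150108227 on the plus strand. Slc18a2 is at chr19:59260896-59296012, Alox5 at chr6:116410077-116461178, Alox5ap at chr5:149264767-149288153 and Lta4h at chr10:93453411-93484875. Pla2g4a, at chr1:149829618-149961290, points away from Ptgs2, and the GENCODE starts of the pair are 138.7 kb apart. Ptgs1 is at chr2:36230426-36252272, Ltc4s at chr11:50236461-50238616 and Hpgds at chr6:65117293-65144908. By gene bodies with introns, an antisense gene overlaps each of Slc18a2, Alox5ap and Ltc4s. Other gene models on the opposite strand overlap Ptgs1, Hpgds and Pla2g4a. Overlap of exons was not checked. Where exons do overlap, reads of both partners cannot be told apart unless the counting used the strand, which is not stated.

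Promoter sequences were available from RefSeq (GRCm38.p6) for 9 of the 10 genes, all but Alox5ap. Those of Hdc and Ptgs2 are shown because these genes changed together across the groups, and that of Slc18a2 because this gene was not called in any comparison. Each line runs from 180 bases before the start site to base 25 of the transcript, 5′ to 3′ on the gene's strand, at chr2:126618654-126618858 (minus), chr1:150099851-150100055 (plus) and chr19:59260698-59260902 (plus) in that order. Start sites are those of RefSeq and can differ from the ends of the GENCODE genes. Capitals mark matches to 6 motifs searched on both strands. They were the cAMP response element (CRE) spelled TGACGTCA, its shorter core spelled CGTCA, which is part of it, the E-box spelled CACGTG, a palindromic motif of CEBP factors spelled TTGCGCAA, the GC box spelled GGGCGG and the TATA box spelled TATAAA.
Hdc: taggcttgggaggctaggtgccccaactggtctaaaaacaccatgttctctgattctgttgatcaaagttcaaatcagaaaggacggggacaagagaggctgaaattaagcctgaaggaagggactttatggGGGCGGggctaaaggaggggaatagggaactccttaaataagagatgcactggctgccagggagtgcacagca
Ptgs2: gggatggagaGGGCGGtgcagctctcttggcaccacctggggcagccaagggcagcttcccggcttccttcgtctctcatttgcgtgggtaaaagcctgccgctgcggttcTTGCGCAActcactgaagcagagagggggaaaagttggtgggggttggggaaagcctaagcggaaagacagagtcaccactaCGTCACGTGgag
Slc18a2: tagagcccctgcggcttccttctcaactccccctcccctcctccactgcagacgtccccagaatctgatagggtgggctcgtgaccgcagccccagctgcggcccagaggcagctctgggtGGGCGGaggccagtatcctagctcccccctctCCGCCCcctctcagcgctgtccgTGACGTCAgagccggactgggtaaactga
In Hdc the match was a GC box that begins at base -48, counted back from the start site. In Ptgs2 there was a GC box at -170, the CEBP palindrome at -69 and a CRE core at 14, which overlaps an E-box at 17. Slc18a2 held a full CRE from -4, the CRE core on both strands within it, and GC boxes at -59 and -27. Among 32851 RefSeq windows of 300 bases, 35.7% held a GC box, 20.8% a CRE core, 7.15% the E-box, 1.79% the full CRE and 0.183% the CEBP palindrome, and 13.6% held the TATA box. No motif was found in both Hdc and Ptgs2 apart from the GC box. These matches describe letters in a window and are not sites of binding.

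Library totals ran from 3596108 to 8151030 counts, and 15083 genes were tested. BaP replicate 3 stood apart from the other libraries. Its basophil marker sum (9 genes, among them Mcpt8, Prss34 and Fcer1a) was 24987 CPM (counts scaled to a fixed library total), against 67549 and 62520 CPM in BaP replicates 1 and 2. Its T and NK cell marker sum was 676 CPM and its erythroid sum 1893 CPM, whereas no other library exceeded 59.3 CPM and 197 CPM. BaP comparisons were therefore also fitted without it, and those values stand beside the results that rest on it. Of the mast cell list, 7 of 9 genes were in the table, with a sum of 65.5 to 771 CPM over libraries, highest in pre-basophils (660 to 771 CPM). In each library 2 to 3 of the 7 were at 0, and the connective tissue mast cell protease gene Mcpt4 had 1 count in all 12 libraries. Basophil markers were detected in every library, and their sum was 60767 to 69572 CPM in pre-basophils, 10769 to 13443 CPM in marrow mature basophils and 5344 to 6100 CPM in splenic mature basophils. In BaP replicate 1 Prss34 and Mcpt8 made up 48653 and 11980 CPM of the 67549 CPM. The study reported lower Prss34 and Mcpt8 expression in mature basophils. The sum therefore does not show how the other listed genes moved and is no measure of basophil purity across the stages.

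Per kilobase of each gene's longest protein-coding transcript, the set was led by 2 genes in each group. Another length can change the order, as all annotated exons together span 6.389 kb for Hdc and 6.102 kb for Lta4h. Their longest coding transcripts have 2392 and 2029 bases. Whether reads scale with transcript length in these libraries was not checked. By mean CPM without length, Hdc lay above Alox5ap in pre-basophils (1591 against 1534) and in marrow mature basophils (2246 against 1739). The same held in splenic mature basophils (2059 against 1259), and Hdc lay below Alox5ap in BaPs (720 against 835). On the transcript length, the level of Alox5ap was 1390 CPM per kb in marrow mature basophils and that of Hdc 939 CPM per kb. Ptgs2 and Alox5 followed with 181 and 146 CPM per kb, Slc18a2 with 52.8 and Lta4h with 21.1 CPM per kb. Pla2g4a was at 6.24 CPM per kb, and Ptgs1, Ltc4s and Hpgds were each under 1. The same pair came first in BaPs, with 668 CPM per kb for Alox5ap and 301 CPM per kb for Hdc. Next in BaPs was Alox5 with 175 CPM per kb, and Ptgs2, with 45.4 CPM per kb, was near Slc18a2 (47.4) and Lta4h (42.9).

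**Figure D1:**
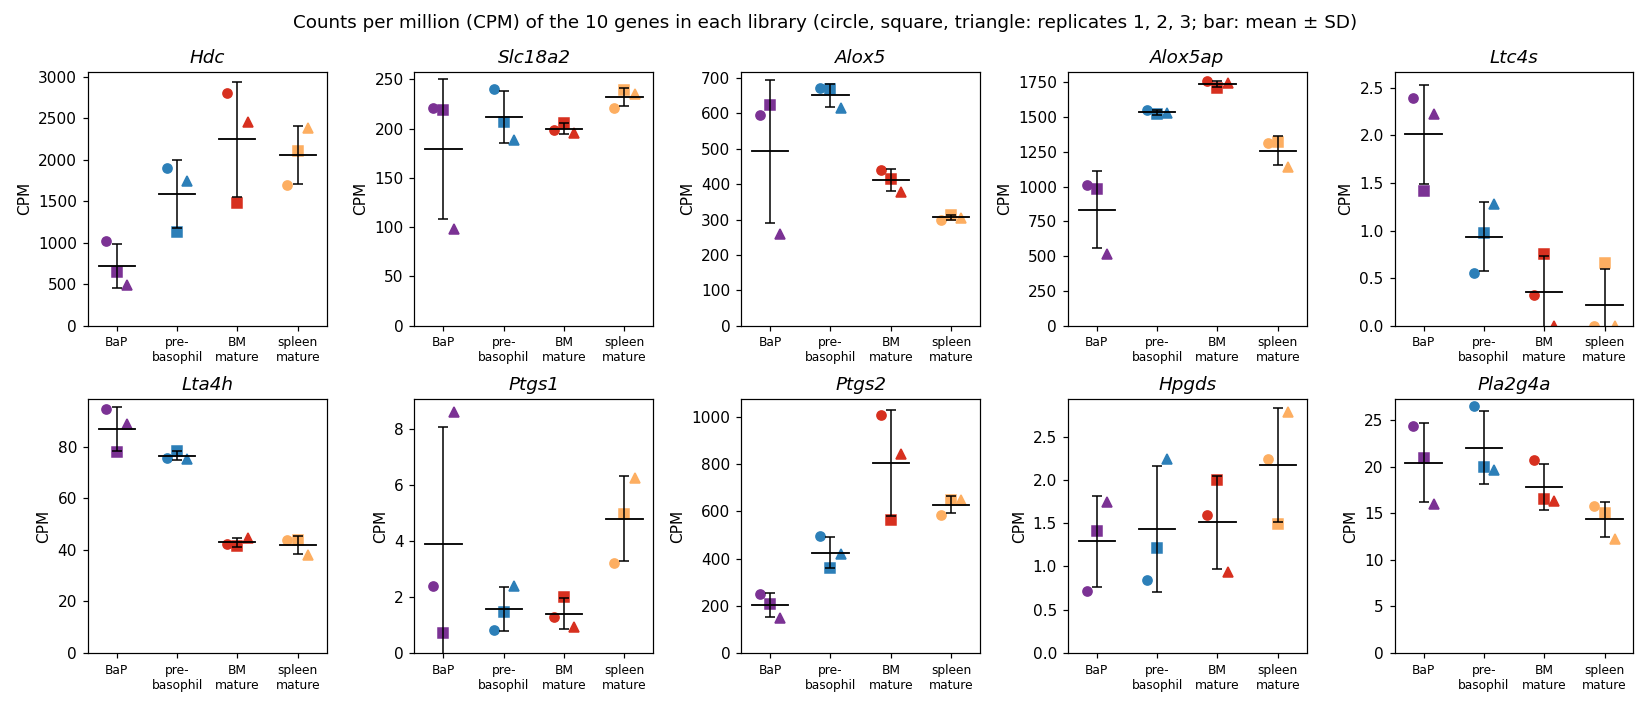
Level of each of the 10 genes in CPM (y axis, linear from 0) in the 4 groups (x axis), with 1 point per library and a bar for the mean and SD of 3 libraries, where a bar reaching below 0 is cut at 0. Hdc and Ptgs2 were lowest in BaPs, Lta4h was higher in BaPs and pre-basophils than in mature basophils, and Slc18a2 had about 200 CPM in all groups apart from BaP replicate 3 (97.7 CPM).

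Hdc, the gene of the only enzyme that makes histamine, was lowest in BaPs. Replicates 1, 2 and 3 had 1018, 647 and 495 CPM in BaPs, 1904, 1130 and 1740 CPM in CD34- pre-basophils, 2810, 1476 and 2452 CPM in marrow mature basophils, and 1693, 2105 and 2380 CPM in splenic mature basophils. All BaP libraries lay below all other libraries, and the other 3 groups overlapped. Against pre-basophils Hdc fell by 1.15 on the log2 scale in BaPs (SE 0.28, n = 3 per group, edgeR adjusted p 0.0284), and against marrow mature basophils by 1.64 (SE 0.29, edgeR adjusted p 0.000378). Without BaP replicate 3 the log2 differences were -0.93 and -1.42 (edgeR adjusted p 0.0224 and 0.000162). The first call was lost without BaP replicate 2 (adjusted p 0.0622) or pre-basophil replicate 1 (0.116) or 3 (0.103), and with these 2 groups alone in the fit (0.0700). Pre-basophils and marrow mature basophils had 1591 ± 408 and 2246 ± 691 CPM (SD, n = 3 per group), a log2 fold change of -0.50 that was not called (edgeR adjusted p 0.211). In these bulk samples fewer expressing cells and less RNA per cell cannot be told apart.

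Slc18a2, which loads histamine and other monoamines into vesicles, was not called in any of the 4 comparisons. It had 221, 219 and 97.7 CPM in BaPs, 240, 207 and 188 CPM in CD34- pre-basophils, 199, 206 and 195 CPM in marrow mature basophils, and 221, 239 and 235 CPM in splenic mature basophils. Its log2 fold changes lay between -0.25 and 0.21, each with an SE of 0.23, and the F test over all 4 groups gave an edgeR adjusted p of 0.486. The spleen libraries were all above the marrow mature libraries, with a log2 fold change of 0.21 that did not pass (edgeR adjusted p 0.602). Against pre-basophils and against marrow mature basophils the sign of the BaP difference turned without BaP replicate 3, to log2 0.07 and 0.15 (edgeR adjusted p 0.741 and 0.262), and scaling by library size alone turned that of the latter to 0.22. Within a library the ratio of Hdc to Slc18a2 counts was 2.95 to 5.07 in BaPs, 5.47 to 9.26 in pre-basophils, 7.16 to 14.2 in marrow mature basophils and 7.65 to 10.1 in splenic mature basophils.

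Of the leukotriene genes, Alox5ap was lower in BaPs than in either later bone marrow group. It had 1009, 980 and 517 CPM in BaPs, 1552, 1523 and 1527 CPM in CD34- pre-basophils, 1760, 1713 and 1745 CPM in marrow mature basophils, and 1312, 1324 and 1141 CPM in splenic mature basophils. No library of any group overlapped with one of another group, and marrow mature basophils were highest. Alox5ap fell by 0.88 on the log2 scale in BaPs against pre-basophils (SE 0.19, edgeR adjusted p 0.0159) and by 1.06 against marrow mature basophils (SE 0.19, edgeR adjusted p 0.000507). Leaving out BaP replicate 3 gave log2 differences of -0.62 and -0.80 (edgeR adjusted p 0.000563 and 2.89e-06). Without pre-basophil replicate 1, 2 or 3 the first adjusted p was 0.0642, 0.0575 or 0.0563, and with these 2 groups alone in the fit it was 0.0790. The step from pre-basophils to marrow mature basophils, with 1534 ± 15.5 against 1739 ± 24.1 CPM (SD, n = 3 per group), was not called (log2 -0.18, SE 0.19, edgeR adjusted p 0.516).

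Alox5, the lipoxygenase that FLAP serves, had another order. It had 595, 624 and 259 CPM in BaPs, 672, 669 and 614 CPM in CD34- pre-basophils, 440, 416 and 378 CPM in marrow mature basophils, and 298, 314 and 306 CPM in splenic mature basophils. Apart from BaP replicate 3, the lowest of all 12 libraries, both progenitor-side groups lay above both mature groups. In pre-basophils it was 1.59-fold higher than in marrow mature basophils (log2 0.66, SE 0.23, edgeR adjusted p 0.0471). This call lay at the threshold. It was lost under 3 other analyses (adjusted p 0.0564 to 0.0638) and without any 1 of the 9 libraries of pre-basophils, marrow mature and splenic mature basophils (adjusted p 0.0638 to 0.142), and without BaP replicate 3 the adjusted p was 9.02e-06. Alox5 in BaPs was not called against marrow mature basophils (log2 0.26, edgeR adjusted p 0.383), and it was called without BaP replicate 3 (log2 0.58, edgeR adjusted p 6.55e-05).

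The levels of Alox5ap and Alox5 thus moved apart, and their ratio was taken within each library, a measure chosen after the values were seen and given without a test. The ratio of Alox5ap to Alox5 counts was 1.70, 1.57 and 1.99 in BaPs, 2.31, 2.28 and 2.48 in CD34- pre-basophils, 4.0, 4.12 and 4.62 in marrow mature basophils, and 4.40, 4.21 and 3.73 in splenic mature basophils. BaP replicate 3 was near the other BaP libraries on this measure, although both genes were at 0.520 and 0.425 of their mean in replicates 1 and 2. The mature groups overlapped each other and lay above both pre-basophils and BaPs, which did not overlap. A ratio within a library shows an unequal change of the 2 genes and not which of them changed.

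**Figure D2:**
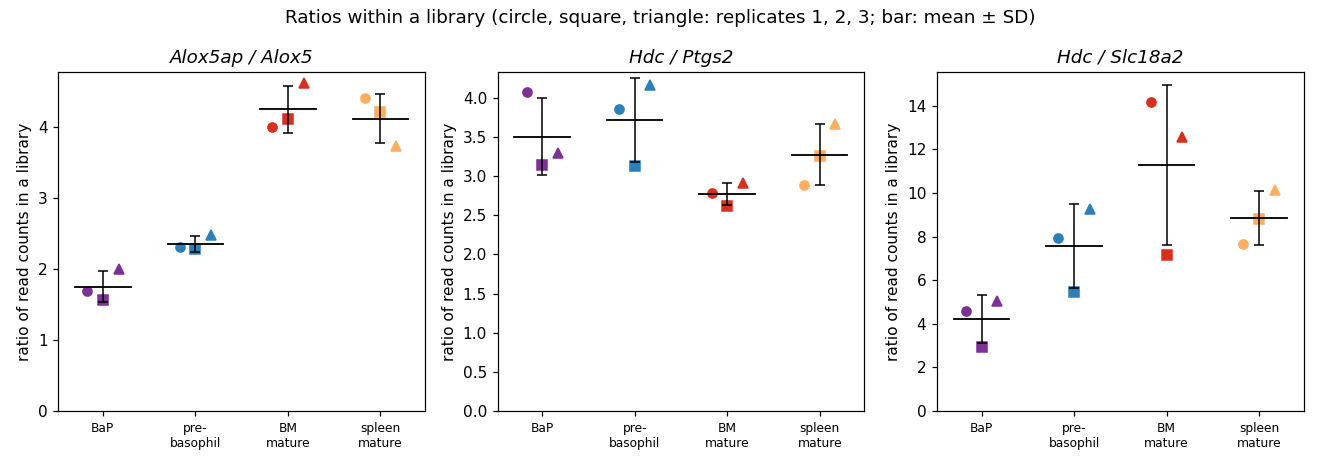
Ratio of read counts of 2 genes within a library (y axis, linear from 0) for Alox5ap to Alox5, Hdc to Ptgs2 and Hdc to Slc18a2 in the 4 groups (x axis), with 1 point per library and the mean and SD of 3. Alox5ap to Alox5 was 1.57 to 2.48 in BaPs and pre-basophils and 3.73 to 4.62 in mature basophils, while Hdc to Ptgs2 stayed between 2.62 and 4.16 in all 12 libraries.

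Lta4h, whose product makes leukotriene B4, a chemoattractant for neutrophils, was higher in BaPs and pre-basophils. It had 94.6, 77.8 and 88.7 CPM in BaPs, 75.7, 78.4 and 75.2 CPM in CD34- pre-basophils, 42.3, 41.6 and 44.7 CPM in marrow mature basophils, and 43.9, 43.9 and 37.8 CPM in splenic mature basophils. Every BaP and pre-basophil library lay above every mature library, with overlap on each side of that gap. Lta4h was 1.78-fold higher in pre-basophils than in marrow mature basophils (log2 0.83, SE 0.12, edgeR adjusted p 0.000158) and 2.03-fold higher in BaPs (log2 1.02, SE 0.12, edgeR adjusted p 9.98e-06). Both calls held in the 21 alternatives without a fold minimum, with log2 differences of 0.78 to 1.06 and 0.97 to 1.45, and a 2-fold minimum ended the first of them. BaP replicate 3 did not stand apart here, with 1.03 times the mean of BaP replicates 1 and 2. Neutrophil markers were also higher in BaPs and pre-basophils than in mature basophils. All 10 were in the table, their sum was 1970 to 2661 CPM in BaPs, 1006 to 2382 CPM in pre-basophils, 111 to 158 CPM in marrow mature and 67.4 to 75.0 CPM in splenic mature basophils, and at most 1 of them was at 0 in a library. The highest neutrophil sum, 2661 CPM, was in BaP replicate 3, where Alox5 was lowest of all 12 libraries (259 CPM). The part of neutrophil transcripts in these results was not tested.

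Ltc4s, the gene of the enzyme that makes leukotriene C4, was at the floor of detection. Its counts over 3 libraries were 39 in BaPs, 14 in pre-basophils, 4 in marrow mature basophils and 4 in splenic mature basophils. The levels in replicates 1, 2 and 3 were 2.39, 1.41 and 2.23 CPM in BaPs, and in pre-basophils they were 0.56, 0.97 and 1.28 CPM. In marrow mature basophils they were 0.32, 0.75 and 0 CPM and in splenic mature basophils 0, 0.66 and 0 CPM, where a count of 0 allows up to 0.562 CPM in marrow mature replicate 3 and up to 0.480 and 0.398 CPM in splenic mature replicates 1 and 3. BaP libraries were thus above all others at this depth. The gene failed the count filter. Without that filter its BaP against marrow mature difference passed (edgeR adjusted p 0.00686) and that of pre-basophils did not (edgeR adjusted p 0.334). Of the MGST enzymes, which can also conjugate leukotriene A4 with glutathione, Mgst3 is described with the wider lists. Mgst2 had a mean of 10.3 CPM in BaPs (5.10 CPM without replicate 3) and 6.05 CPM in pre-basophils. Its means were 9.45 and 7.81 CPM in marrow mature and splenic mature basophils. Mgst2 was not called between pre-basophils and marrow mature basophils, BaPs and pre-basophils, or spleen and marrow mature basophils (edgeR adjusted p 0.365, 0.314 and 0.752).

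Ptgs2 was lowest in BaPs, intermediate in pre-basophils and highest in marrow mature basophils. It had 250, 206 and 150 CPM in BaPs, 494, 362 and 418 CPM in CD34- pre-basophils, 1009, 563 and 844 CPM in marrow mature basophils, and 586, 647 and 649 CPM in splenic mature basophils. The 3 bone marrow groups did not overlap, and the spleen values lay inside the marrow mature range. Ptgs2 fell by 0.92 on the log2 scale in pre-basophils against marrow mature basophils (SE 0.21, edgeR adjusted p 0.00491), by 1.07 in BaPs against pre-basophils (SE 0.21, edgeR adjusted p 0.00905) and by 2.0 in BaPs against marrow mature basophils (SE 0.22, edgeR adjusted p 6.76e-06). Without BaP replicate 3 the last 2 values were -0.89 and -1.81 (edgeR adjusted p 0.00460 and 4.08e-07), and without pre-basophil replicate 1 the BaP against pre-basophil call was lost (0.0537). Ptgs2 is itself an immediate-early gene, and the summed level of 13 other such genes, Fos, Jun and Egr1 among them, was 21470 to 30544 CPM in BaPs, 44018 to 48951 CPM in pre-basophils, 93640 to 114015 CPM in marrow mature and 112836 to 131665 CPM in splenic mature basophils. The part of cell handling in these levels was not tested.

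Hdc and Ptgs2 kept close to one another. Across the 12 libraries, which share their groups and depth, Pearson's r of log2 CPM was 0.965 between them, a description without a test. Within a library the ratio of Hdc to Ptgs2 counts was 3.14 to 4.07 in BaPs, 3.12 to 4.16 in pre-basophils, 2.62 to 2.90 in marrow mature and 2.89 to 3.67 in splenic mature basophils. In the bone marrow both were lowest in replicate 2 of pre-basophils and of marrow mature basophils. Lta4h ran against Ptgs2, with an r of -0.840.

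Ptgs1, the gene of the constitutive cyclooxygenase, was below Ptgs2 in every group, with 1.36 against 45.4 CPM per kb in BaPs and 1.67 against 141 CPM per kb in splenic mature basophils. It had 2.39, 0.71 and 8.62 CPM in BaPs, 0.84, 1.46 and 2.4 CPM in CD34- pre-basophils, 1.27, 2.0 and 0.94 CPM in marrow mature basophils, and 3.20, 4.95 and 6.24 CPM in splenic mature basophils. All spleen libraries lay above all marrow mature libraries, and among BaPs replicate 3 was 5.57 times the mean of the other two. The log2 fold change of spleen against marrow mature basophils was 1.79 (SE 0.69, edgeR adjusted p 0.130) and was not called in the fit of all 12 libraries. It passed without BaP replicate 3 (edgeR adjusted p 0.0112), with these 2 groups alone in the fit (0.00753) and without the count filter (0.00331). The BaP against pre-basophil value of 1.38 was -0.11 without BaP replicate 3, and that against marrow mature basophils, 1.64, was 0.18. Over all 4 groups the adjusted p was 0.0635, and it was 0.0360 with the replicate number as a block. Platelets carry much Ptgs1, and the sum of 7 megakaryocyte and platelet genes was 682 to 1016 CPM in splenic mature basophils against 577 to 654 CPM in marrow mature basophils, with no gene of the list at 0. The B cell sum was 257 to 516 CPM against 40.1 to 60.5 CPM. Their part in the Ptgs1 values was not tested.

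**Figure D3:**
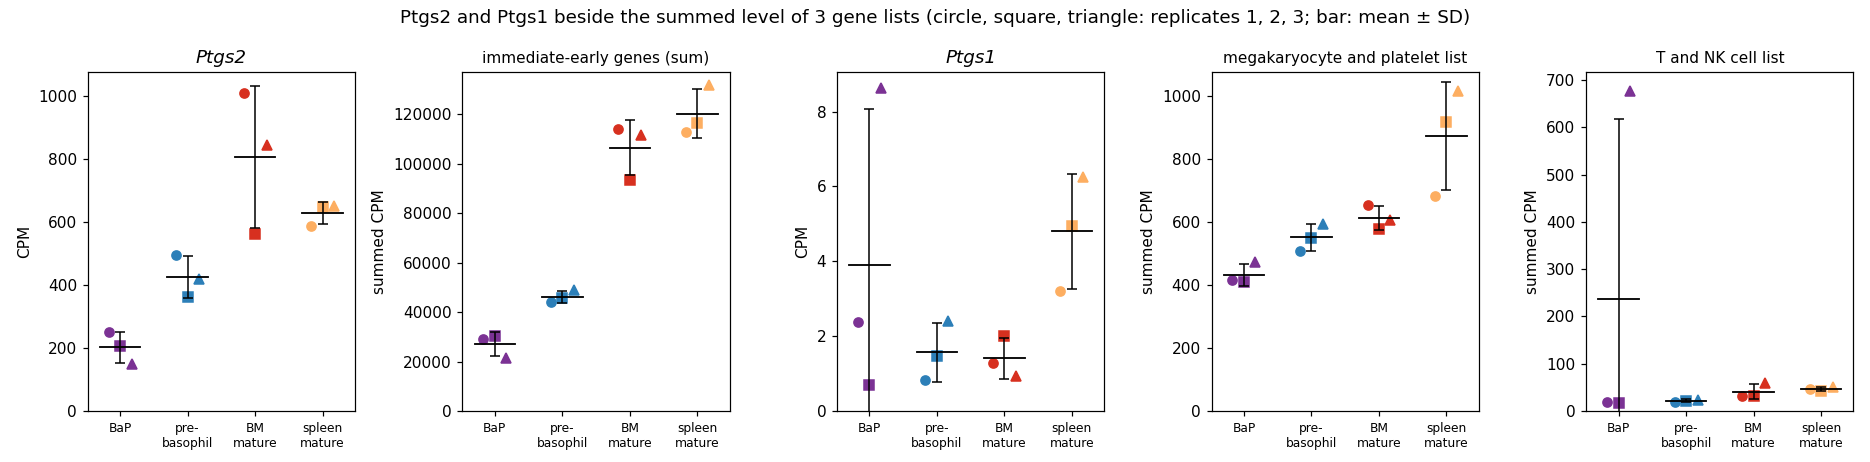
Level of Ptgs2 and Ptgs1 (CPM) and summed level (CPM) of immediate-early genes, megakaryocyte and platelet genes, and T and NK cell genes (y axes, linear from 0) in the 4 groups (x axes), with 1 point per library and the mean and SD of 3, where a bar reaching below 0 is cut at 0. BaP replicate 3 was highest for Ptgs1 (8.62 CPM) and for the T and NK cell sum (676 CPM), and every mature library was above every BaP and pre-basophil library for the immediate-early sum.

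Hpgds and Pla2g4a showed no called difference in any pair of groups. Hpgds had 0.72 to 1.74 CPM in BaPs, 0.84 to 2.24 CPM in pre-basophils, 0.94 to 2.0 CPM in marrow mature and 1.49 to 2.79 CPM in splenic mature basophils, with 18 to 44 counts per group, and all groups overlapped. No difference in this prostaglandin D synthase was detectable at this depth. Pla2g4a had 24.4, 21.0 and 16.0 CPM in BaPs, 26.6, 20.0 and 19.7 CPM in CD34- pre-basophils, 20.7, 16.5 and 16.3 CPM in marrow mature basophils, and 15.8, 15 and 12.2 CPM in splenic mature basophils. Only the spleen libraries lay apart from another group, below all pre-basophil, marrow mature and BaP libraries. Its log2 differences were between -0.31 and 0.31 with SEs of about 0.20. Over all 4 groups the edgeR adjusted p was 0.0627, with the replicate number as a block 0.0119, and without BaP replicate 3 0.0110.

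Counted by comparison, 3 of the 9 tested genes (33.3%) were called between pre-basophils and marrow mature basophils, Alox5 and Lta4h higher and Ptgs2 lower, where 27.3% of all tested genes were called. In 4 of 9 the libraries of the 2 groups did not overlap, against 47.0% of all tested genes. Between BaPs and pre-basophils 3 of 9 were called, Hdc, Alox5ap and Ptgs2, all lower in BaPs, where 7.08% of all tested genes were called and 4.29% were called lower. Groups did not overlap for the same 3 genes, against 25.1% of all tested genes. BaPs against marrow mature basophils gave 4 of 9 (44.4%), Lta4h higher and Hdc, Alox5ap and Ptgs2 lower, where 45.0% of all tested genes were called and 52.0% did not overlap. These comparisons share libraries and do not count as separate evidence. Between spleen and marrow mature basophils 0 of 9 were called by edgeR, where 7.83% of all tested genes were called, 3.16% higher and 4.67% lower. Of the 9, 2 had an unadjusted p under 0.05, and DESeq2 and limma-voom called 0. The F test over all 4 groups called 5 of 9 (Hdc, Alox5, Alox5ap, Lta4h and Ptgs2), where 57.8% of all tested genes were called. The share called lay above the background between BaPs and pre-basophils (33.3% against 7.08%) and at 0 between spleen and marrow mature basophils (against 7.83%). Elsewhere it was close to the background. The genes were chosen with earlier results of these data known, and no test was made of these differences. The count of 3 between BaPs and pre-basophils was 0 without pre-basophil replicate 1, 1 without pre-basophil replicate 3, and 1 with these 2 groups alone in the fit. Calls over all tested genes fell too, from 1068 of 15083 to 471 of 16380, 382 of 14951 and 375 of 13017 in that order.

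Alox5 and Alox5ap were lower in all spleen than in all marrow mature libraries, as 5 of the 9 genes were fully separated between these groups, against 33.7% of all tested genes. Alox5 had a log2 fold change of -0.43 (SE 0.23, edgeR adjusted p 0.278) and Alox5ap of -0.47 (SE 0.19, edgeR adjusted p 0.147). Without BaP replicate 3, which is in neither group but shares the estimate of the spread, both were called. The adjusted p was 0.00260 for Alox5 and 0.00127 for Alox5ap at nearly the same fold change, and with the 2 groups alone in the fit 0.00681 and 0.00547. Hdc and Ptgs2 had log2 differences of -0.13 and -0.36 with overlapping libraries, and Lta4h had -0.04 (SE 0.12).

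**Figure D4:**
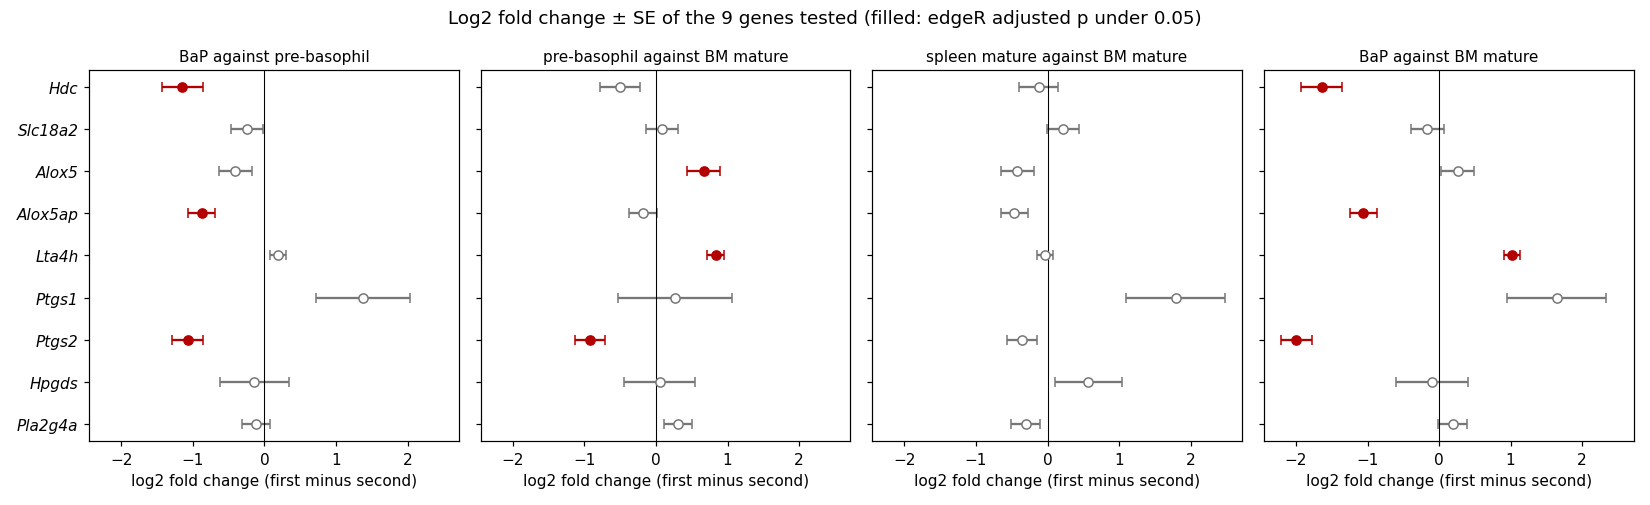
Log2 fold change with its SE (x axis, first group minus second) of the 9 tested genes (y axis) in 4 comparisons, with filled red points for an edgeR adjusted p under 0.05. Hdc, Alox5ap and Ptgs2 lay to the left in both BaP panels, Lta4h to the right of 0 in the pre-basophil and BaP against marrow mature panels, and no point was filled in the spleen panel.

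The other genes of these pathways were followed in 5 lists with 81 genes beside the 10, of which 75 were in the table and 49 were tested. The lists too were chosen with earlier results of these data known, and their shares were not tested against the background. Between pre-basophils and marrow mature basophils 19 of the 49 were called (38.8%, against 27.3% of all tested genes), 9 higher and 10 lower in pre-basophils. BaPs against pre-basophils gave 11 calls (22.4%, against 7.08% of all tested genes), 2 higher and 9 lower. Spleen against marrow mature basophils gave 5 (10.2%, against 7.83%), 1 higher and 4 lower. The spleen count was 8 with the replicate number as a block and 12 without BaP replicate 3, and with another library left out it was as low as 0 (without marrow mature replicate 2) or 1 (without marrow mature or splenic mature replicate 3). Over all tested genes the spleen calls were 1703 of 15083 with the block and 2653 of 14723 without BaP replicate 3. They were 459 of 16403 without marrow mature replicate 2. Without marrow mature or splenic mature replicate 3 they were 448 of 14977 and 241 of 14891. BaPs differed from marrow mature basophils in 31 (63.3%, against 45.0% of all tested genes), 14 higher and 17 lower. Without BaP replicate 3 they differed in 34, where 7549 of 14723 tested genes were called. Beside these, the median log2 fold change of the 49 was -0.08, -0.18, -0.03 and -0.32 in the order pre-basophil against marrow mature, BaP with pre-basophil, spleen against marrow mature and BaP against marrow mature, and that of all tested genes was -0.00, 0.02, 0.01 and 0.05.

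Of the 7 tested genes of histamine handling and its receptors, 4 were called between pre-basophils and marrow mature basophils, 2 in each direction. Beside this and the list counts that follow for the same comparison, 2460 of all 15083 tested genes were called higher and 1652 lower, together 27.3%. Slc22a3, an organic cation transporter that carries histamine across the plasma membrane, had 73.4 ± 30.2 CPM in BaPs, 55.5 ± 3.76 CPM in pre-basophils, 14.8 ± 2.46 CPM in marrow mature and 7.49 ± 2.12 CPM in splenic mature basophils (SD, n = 3 per group). It was 3.77-fold higher in pre-basophils than in marrow mature basophils (log2 1.92, SE 0.30, edgeR adjusted p 0.000353) and 4.94-fold higher in BaPs (edgeR adjusted p 2.86e-05), where log2 was 2.30 and, without BaP replicate 3, 2.64 (8.27e-10). Hrh4, the histamine receptor of leukocytes, ran the other way, with 4.96 ± 1.46, 12.9 ± 1.67, 23.3 ± 3.38 and 19.0 ± 2.20 CPM in the same order. Its log2 fold change was -0.87 in pre-basophils against marrow mature basophils and -1.38 in BaPs against pre-basophils (edgeR adjusted p 0.00564 and 0.00292), the latter being -1.27 without BaP replicate 3 (0.00423). Hrh2, another histamine receptor, fell by 1.01 on the log2 scale in BaPs against marrow mature basophils (edgeR adjusted p 0.00502), with 9.74 ± 3.18 against 19.9 ± 5.72 CPM (SD, n = 3 per group), and by 1.26 without BaP replicate 3 (0.000736).

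Among the 10 tested genes of leukotriene conversion, export, breakdown and reception, 6 were called between pre-basophils and marrow mature basophils, 3 in each direction. Cyp4f18, a cytochrome P450 that inactivates leukotriene B4, had 245 ± 50.8 CPM in BaPs, 532 ± 4.10 CPM in pre-basophils, 912 ± 25.9 CPM in marrow mature and 1113 ± 166 CPM in splenic mature basophils (SD, n = 3 per group). It fell by 0.78 on the log2 scale in pre-basophils against marrow mature basophils and by 1.12 in BaPs against pre-basophils (edgeR adjusted p 0.00157 and 0.000913), the latter being -0.95 without BaP replicate 3 (3.58e-05). Ltb4r1, the high-affinity leukotriene B4 receptor, was 2.07-fold higher in pre-basophils than in marrow mature basophils (83.9 ± 10.5 against 40.5 ± 4.97 CPM, SD, n = 3 per group, edgeR adjusted p 0.00268). Lta4h and Ltb4r1 were thus higher, and Cyp4f18 lower, in pre-basophils. Neutrophils also express Ltb4r1, and the neutrophil sums given for Lta4h were likewise higher in pre-basophils than in marrow mature basophils. In BaPs, with neutrophil sums of 1970 to 2661 CPM, Ltb4r1 had 65.5 ± 21.1 CPM (SD, n = 3). The part of neutrophil transcripts in Ltb4r1 was not tested. Cotl1, which binds 5-lipoxygenase, fell by 0.75 on the log2 scale in pre-basophils (edgeR adjusted p 0.00662). Abcc1, the exporter of leukotriene C4, fell by 0.54 there (edgeR adjusted p 0.00474) and was 1.35-fold higher in spleen than in marrow mature basophils (108 ± 6.21 against 80.1 ± 6.60 CPM, SD, n = 3 per group, edgeR adjusted p 0.0405), a call kept in 8 of 21 alternatives (here and below those without a fold minimum). Mgst3, one of the microsomal glutathione transferases, was at 13.7 ± 1.91 against 6.03 ± 0.631 CPM in pre-basophils and marrow mature basophils (edgeR adjusted p 0.0141), and Abcc4, an exporter of prostaglandins and leukotrienes, was 1.85-fold higher in pre-basophils (edgeR adjusted p 0.0176).

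Of 13 tested prostaglandin genes, 5 were called between pre-basophils and marrow mature basophils, 3 higher and 2 lower. Of the genes of prostaglandin E2 receptors, Ptger3 and Ptger4 were called lower in pre-basophils, Ptger1 was not called (edgeR adjusted p 0.637) and Ptger2 was not tested. Ptger3 had 45.2 ± 15.8 CPM in BaPs, 79.4 ± 4.91 CPM in pre-basophils, 119 ± 2.34 CPM in marrow mature and 79.3 ± 4.36 CPM in splenic mature basophils (SD, n = 3 per group), and Ptger4 had 19.8 ± 9.29, 26.6 ± 8.73, 58.2 ± 10.4 and 61.2 ± 9.11 CPM. In pre-basophils against marrow mature basophils their log2 differences were -0.58 and -1.14 (edgeR adjusted p 0.0428 and 0.0111). The call of Ptger3 was kept in 11 of 22 alternatives. Akr1b3 and Ptges3 rose with log2 differences of 0.60 and 0.51 (edgeR adjusted p 0.00569 and 0.0162). Tbxas1, the thromboxane synthase gene, was 2.25-fold higher in BaPs than in pre-basophils (27.8 ± 1.12 against 12.4 ± 1.51 CPM, SD, n = 3 per group, edgeR adjusted p 0.00309), and without BaP replicate 3 log2 went from 1.17 to 1.14 (0.00151). Cbr1, a carbonyl reductase of prostaglandins, was 1.63-fold higher there (edgeR adjusted p 0.0466), and 11 of 22 alternatives kept that call, among them the one without BaP replicate 3 (0.0353). Slco3a1, a transporter of prostaglandins, was 1.87-fold higher in pre-basophils than in marrow mature basophils (edgeR adjusted p 0.0383). Ptgr2, which reduces prostaglandin metabolites, fell by 0.50 on the log2 scale in spleen against marrow mature basophils (edgeR adjusted p 0.0372), a call kept in 11 of 21 alternatives.

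Release and reincorporation of arachidonic acid was represented by 9 tested genes, of which 3 were called between pre-basophils and marrow mature basophils, all lower in pre-basophils, where 27.3% of all tested genes were called in either direction. Mgll, the monoacylglycerol lipase gene, had 2.88 ± 0.858 against 11.9 ± 1.91 CPM (SD, n = 3 per group, log2 -2.02, edgeR adjusted p 0.00242). Mboat7, an acyltransferase that returns arachidonic acid to phosphatidylinositol, and Pnpla8, a calcium-independent phospholipase A2, had log2 differences of -0.57 and -0.46 (edgeR adjusted p 0.00561 and 0.0321), and the call of Pnpla8 was kept in 14 of 22 alternatives. Faah, which breaks down anandamide, was 1.86-fold higher in pre-basophils than in BaPs (log2 -0.89 for BaPs, edgeR adjusted p 0.00744, and -0.69 without BaP replicate 3, 0.00252). Of the other lipoxygenase and platelet-activating factor genes, 10 were tested. Alox15 had 131 ± 21.7 CPM in BaPs, 249 ± 5.77 CPM in pre-basophils, 296 ± 13.9 CPM in marrow mature and 289 ± 31.4 CPM in splenic mature basophils (SD, n = 3 per group), and it fell by 0.92 on the log2 scale in BaPs against pre-basophils (edgeR adjusted p 0.00115). Alox8 fell by 1.22 in that comparison (edgeR adjusted p 0.00744). Without BaP replicate 3 these log2 values were -0.79 and -0.90 (edgeR adjusted p 0.000187 and 0.000783). Both calls held in the 22 alternatives without a fold minimum, and a 2-fold minimum ended that of Alox15. Pafah1b3, a subunit of an acetylhydrolase of platelet-activating factor, was 1.70-fold higher in pre-basophils than in marrow mature basophils (edgeR adjusted p 0.0291), and Pafah1b2, another subunit, was 1.53-fold higher in BaPs than in marrow mature basophils (log2 0.61, edgeR adjusted p 0.00330, and 0.65 without BaP replicate 3, 0.00239).

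**Figure D5:**
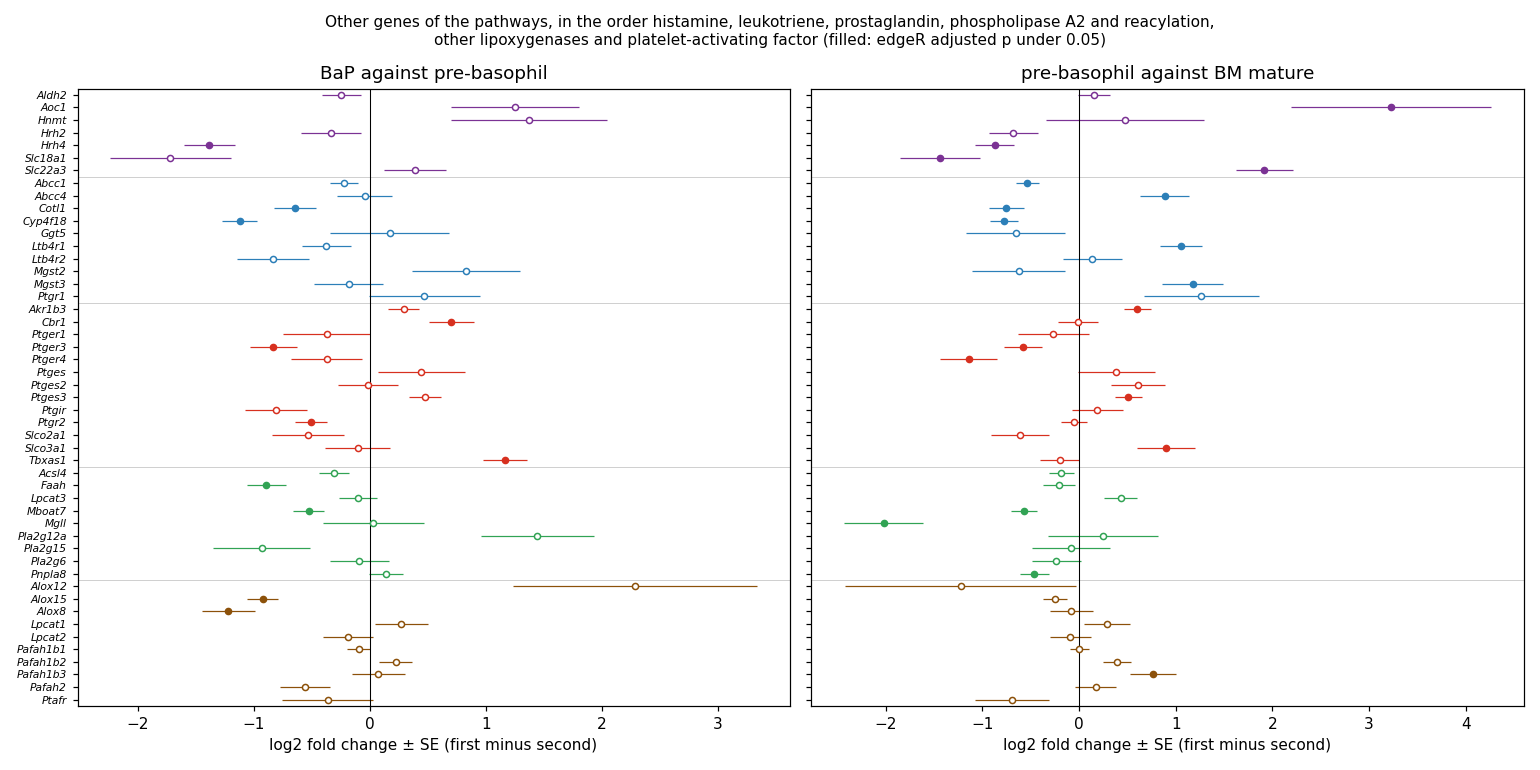
Log2 fold change with its SE (x axes, first group minus second) of the 49 tested genes of the wider lists (y axis), coloured by list, in BaPs against pre-basophils (left) and pre-basophils against marrow mature basophils (right), with filled points for an edgeR adjusted p under 0.05. In the left panel 9 of 11 filled points lay below 0, and in the right panel 9 of 19 lay above 0.

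The genes whose log2 CPM followed each member most closely over the 12 libraries were listed as a description. Hdc was followed by Furin and Plek (Pearson's r 0.982 and 0.976), Ptgs2 by Plekho2 and 1700017B05Rik (0.982 and 0.978) and Alox5ap by Cd200r3 and Dtnb (0.990 and 0.982). Alox5 was followed by Fam129a and Fcer1a (0.991 and 0.976) and Lta4h by Hmgn1 and Nsd2 (0.987 and 0.986). For Slc18a2 they were Plod3 and Tex2 (0.950 and 0.946) and for Pla2g4a Gm4724 and Cox5b (0.962 and 0.956). The low genes Ptgs1 and Hpgds were followed by Gm4462 and Pik3c2a (0.914 and 0.891) and by Cop1 and LT629148.8 (0.880 and 0.877). The points share library, depth and group, and BaP replicate 3 is among them.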

How the data were processed

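The values deposited are raw counts of reads for each gene. Per the study's methods, the authors pooled 4 animals per library, amplified polyadenylated RNA, trimmed reads with Cutadapt 3.4, mapped them with Bowtie2 2.4.2 to GRCm38 reference transcripts and counted reads per gene, whereas the submitters' processing notes name GRCm39 (mm39). Use of strand and assignment of multimapped reads are not stated. No molecular identifiers are described, so floors cover counting error only, while SEs and SDs include the spread between pools. Counts were filtered (filterByExpr), scaled by TMM and tested over all 12 libraries with edgeR 4.0.16 in R 4.3.3 (quasi-likelihood, Benjamini-Hochberg over 15083 genes, adjusted p under 0.05). A called gene is one past that threshold. CPM use TMM-scaled totals, log2 CPM took a prior count of 2, and a count of 0 was taken to allow 3 counts. TMM factors were 0.844 to 1.30. Alternatives used DESeq2 1.42.0, limma 3.58.1, other scalings, no filter, a replicate block, a 2-fold minimum and each library left out. TCC, the authors' package, was not used, and its scheme was rebuilt in edgeR. Same-numbered libraries deviated together among the 3 bone marrow groups (every correlation 0.125 to 0.262) and more weakly with spleen (0.0004 to 0.0899). Libraries of different numbers gave -0.206 to 0.0758. Deviations sum to 0 in each group, so these values are tied to the same-numbered ones and are no separate evidence. The numbers thus pair the bone marrow libraries by the data. Wider-list genes were named if called, with 10 CPM or more on average in the higher group, at most 3 highest and 3 lowest per list and comparison. Members, lists and marker genes were chosen with earlier results of these data known. The test was checked on simulated counts.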

Additional observations from a re-analysis of the deposited data

How the results depend on the processing

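Library size alone set the median log2 fold change over all tested genes at 0.22, 0.23, 0.14 and 0.48 (pre-basophil against marrow mature, BaP with pre-basophil, spleen against marrow mature, BaP against marrow mature), so changes under that scaling are relative to these shifts. Member calls then numbered 7 between BaPs and marrow mature basophils in place of 4. Over all 15083 tested genes 7672 were called there in place of 6785. A 2-fold minimum left 0 member calls between pre-basophils and marrow mature basophils in place of 3, and 7, 4, 3 and 18 wider-list calls. Of all 15083 tested genes it left 1840, 335, 471 and 3727 called in the same order. Fits of only the groups compared gave 1 member call between BaPs and pre-basophils and 3 between spleen and marrow mature basophils, and 6 and 10 wider-list calls. These fits called 375 of 13017 and 2340 of 14282 tested genes. Without the filter there were 2 member calls between spleen and marrow mature basophils, and 18 and 9 wider-list calls for BaP against pre-basophil and spleen against marrow mature. Of all 32227 genes 2091 and 1796 were called in these comparisons. Of the 919 alternative values for single members, the 2-fold minimum left aside, 845 kept their direction and side of the threshold, 21 lost the call, 30 gained it and 23 changed sign, and DESeq2 gave no adjusted p for Hpgds in 2 comparisons.

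With the replicate block, members called numbered 3, 3, 0 and 4 in the 4 comparisons and 7 in the F test, and the wider-list count of spleen against marrow mature was 8. Of all 15083 tested genes the block gave 4483, 1399, 1703 and 7069 calls, and 9081 in the F test. A block within the 9 bone marrow libraries alone, added after seeing the data, left 3, 3 and 4 member calls and changed no member call. It called 4399, 1292 and 6839 of 13536 tested genes. Each of the 12 libraries correlated best with libraries of its own number.

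Leaving out 1 library gave 0 to 3 member calls between BaPs and pre-basophils (0 without pre-basophil replicate 1, 1 without replicate 3), 0 to 3 between spleen and marrow mature basophils (3 without BaP replicate 3), 2 to 3 between pre-basophils and marrow mature basophils, 4 to 6 between BaPs and marrow mature basophils and 6 to 7 in the F test. Wider-list calls ran from 12 to 21 (pre-basophil against marrow mature), 6 to 12 (BaP against pre-basophil), 0 to 12 (spleen against marrow mature), 26 to 35 (BaP against marrow mature) and 35 to 42 (F test). Calls over all genes moved as well. Of 14723 to 16403 tested genes, 2831 to 5251, 382 to 1831, 241 to 2653, 5708 to 7549 and 7587 to 9690 were called in the same order. For BaPs against pre-basophils they were 471 of 16380 without pre-basophil replicate 1 and 382 of 14951 without replicate 3. For spleen they were 2653 of 14723 without BaP replicate 3. The causes were not tested.

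All sign changes were of uncalled values. Under library size alone the log2 values were 0.041 for Alox5ap (pre-basophil against marrow mature), 0.092 for Hpgds (BaP against pre-basophil), 0.074 for Pla2g4a (BaP against pre-basophil), 0.017 for Hdc (splenic against marrow mature), 0.097 for Lta4h (splenic against marrow mature), 0.22 for Slc18a2 (BaP against marrow mature) and 0.35 for Hpgds (BaP against marrow mature). Hpgds in pre-basophils against marrow mature basophils was -0.0055 under upper-quartile scaling and -0.0062 in DESeq2. With 1 library left out, the values that changed sign ran from -0.0199 to 0.16 for Slc18a2 (pre-basophil against marrow mature), -0.24 to 0.62 for Ptgs1 (pre-basophil against marrow mature), -0.43 to 0.067 for Slc18a2 (BaP with pre-basophil), -0.11 to 1.87 for Ptgs1 (BaP with pre-basophil), -0.38 to 0.084 for Hpgds (BaP with pre-basophil), -0.27 to 0.0604 for Pla2g4a (BaP with pre-basophil), -0.35 to 0.045 for Hdc (splenic against marrow mature), -0.068 to 0.037 for Lta4h (splenic against marrow mature), -0.34 to 0.15 for Slc18a2 (BaP against marrow mature) and -0.11 to 0.18 for Hpgds (BaP against marrow mature).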

Other observations

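Beyond the named genes, 3 genes of the wider lists were chosen after their values were seen. Alox12, a lipoxygenase that platelets carry, had 27.0 ± 10.6 CPM in splenic mature basophils and 3.74 ± 1.21 CPM in marrow mature basophils (SD, n = 3 per group), with a log2 fold change of 2.87 that did not pass (edgeR adjusted p 0.0684). The platelet and B cell sums given for Ptgs1 were also higher in spleen. BaP replicate 3 had 19.1 CPM of Alox12, and the BaP mean without it was 0.354 CPM. Its platelet gene sum was 472 CPM, against 414 and 408 CPM in BaP replicates 1 and 2. Its B cell sum was 304 CPM, against 33.9 and 35.4 CPM. The part of other cell types in Alox12 was not tested. Slc18a1, the relative of Slc18a2 in endocrine cells, had 0.733 ± 0.0365 CPM in BaPs, 2.49 ± 0.469 CPM in pre-basophils, 6.69 ± 2.81 CPM in marrow mature and 1.97 ± 1.17 CPM in splenic mature basophils (SD, n = 3 per group), and it fell by 1.75 on the log2 scale in spleen against marrow mature basophils (edgeR adjusted p 0.0219). Aoc1, which encodes the diamine oxidase that degrades histamine, had 40, 13, 1 and 2 counts over the libraries of BaPs, pre-basophils, marrow mature and splenic mature basophils.

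The genes of the set differed in how BaP replicate 3 departed from BaP replicates 1 and 2. Its level relative to the mean of the other pair was 0.425 for Alox5, 0.444 for Slc18a2, 0.520 for Alox5ap, 0.595 for Hdc, 0.658 for Ptgs2 and 0.705 for Pla2g4a, beside 0.384 for the summed basophil markers. Lta4h was at 1.03 and Ptgs1 at 5.57, and the summed monocyte, macrophage and dendritic cell markers were at 4.47. The part of other cell types in these values was not tested.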
